A study of Mus musculus with 23 samples.

Results

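The granzyme and chymase locus of the mouse is a run of serine protease genes on chromosome 14, within chr14:55941451-56262334 (mm10). Its members here were Cma1, Mcpt8, Ctsg, Gzme, Gzmd, Gzmg, Gzmn, Gzmf, Gzmc and Gzmb, in that order along the chromosome and all on the minus strand. They were taken by gene symbol, and all 10 were found among the 35645 genes of an RNA table from the liver. In a table of chromatin accessibility (ATAC-seq, which counts reads from DNA that a transposase can enter), 12 of 51412 peaks carried the name of a member. These 12 peaks named 6 members: Gzmb 4 times, Gzmc, Gzmf and Cma1 2 times each, and Mcpt8 and Ctsg once each.

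The proteases of this locus are made as inactive precursors and stored in granules of immune cells. Granzyme B (Gzmb) enters target cells with the help of perforin and cuts after aspartate, which sets off the caspases of programmed cell death. Granzyme C (Gzmc) can kill cells without caspases, and Gzmd, Gzme, Gzmf and Gzmg are close relatives of it that rodents carry as a tandem array. Cma1 encodes a chymase best known from the granules of mast cells, Mcpt8 a protease of basophils, and Ctsg cathepsin G of neutrophil granules. Granzymes are found in natural killer (NK) cells, which travel in the blood, and in type 1 innate lymphoid cells (ILC1s), their relatives that settle in tissues such as liver and salivary gland.

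The RNA libraries were 15, each from 1 of 4 populations sorted from the liver of 1 of 6 mice. NK cells were S1pr5eGFP+ (mice 1, 4, 5 and 6), with a green fluorescent reporter of S1pr5. The ILC1s were sorted by a reporter of current Gzmc expression and by a fate map (GzmcFM), a permanent mark left in cells that once expressed Gzmc. They were GzmC+GzmcFM+ (double positive, DP; mice 3, 4, 5 and 6), GzmC-GzmcFM+ (fate-mapped single positive, FMSP; mice 3, 4, 5 and 6) and GzmC-GzmcFM- (double negative, DN; mice 2, 4 and 6). The ATAC libraries were 8, with 2 replicates each of liver NK cells, spleen NK cells, liver ILC1s and salivary gland ILC1s. For these the sample labels name the reporter populations S1pr5eGFP+ and GzmC+GzmcFM+, while the study's design text gives the surface phenotypes NK1.1+NKp46+CD49a-CD49b+ for NK cells and NK1.1+NKp46+CD49a+ for ILC1s, so whether the ATAC ILC1s were chosen by Gzmc cannot be told. The age, strain and sex of the mice, and how the reporter and fate-map alleles were built, are not given in the sources used here. Because Gzmc chose DP, FMSP and DN cells, its RNA differences among these 3 populations, and between DP and NK cells, check the sort. The FMSP gate used past Gzmc, and its part in the Gzmc difference between FMSP and NK cells was not tested.

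The bases before the start sites are shown first, because they show how alike the Gzmc relatives are. All 10 members were matched in RefSeq's table of start sites (GRCm38.p6, the assembly behind mm10), and the 250 bases before each start were compared. Each sequence reads 5′ to 3′ on the minus strand and ends at the base before the start. The capitals mark a Runx match (TGTGGTT), an AP-1 match (TGANTCA) or a cyclic AMP response element (CRE) match (TGACGTCA), each on either strand, where AACCACA is the Runx match read from the other strand. The 5 relatives come first, Gzmc at chr14:56234658-56234907, Gzmd at chr14:56132594-56132843, Gzme at chr14:56120626-56120875, Gzmf at chr14:56211408-56211657 and Gzmg at chr14:56159580-56159829. Gzmb at chr14:56262335-56262584 and Cma1 at chr14:55944676-55944925 follow, because their RNA and accessibility are compared with those of Gzmc.
Gzmc: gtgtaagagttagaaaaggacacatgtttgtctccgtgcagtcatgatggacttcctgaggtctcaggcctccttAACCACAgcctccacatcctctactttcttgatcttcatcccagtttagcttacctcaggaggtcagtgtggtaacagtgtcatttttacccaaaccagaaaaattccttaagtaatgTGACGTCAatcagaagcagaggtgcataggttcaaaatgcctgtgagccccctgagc
Gzmd: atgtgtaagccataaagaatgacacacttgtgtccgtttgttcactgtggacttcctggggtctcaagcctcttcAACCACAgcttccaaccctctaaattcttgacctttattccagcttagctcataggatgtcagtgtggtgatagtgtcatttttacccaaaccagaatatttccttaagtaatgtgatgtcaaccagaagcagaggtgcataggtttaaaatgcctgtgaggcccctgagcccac
Gzme: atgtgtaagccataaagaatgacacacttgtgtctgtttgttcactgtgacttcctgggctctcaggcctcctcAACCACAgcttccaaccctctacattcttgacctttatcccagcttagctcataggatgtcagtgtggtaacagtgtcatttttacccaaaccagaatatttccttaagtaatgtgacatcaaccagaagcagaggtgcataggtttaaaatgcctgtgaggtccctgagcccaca
Gzmf: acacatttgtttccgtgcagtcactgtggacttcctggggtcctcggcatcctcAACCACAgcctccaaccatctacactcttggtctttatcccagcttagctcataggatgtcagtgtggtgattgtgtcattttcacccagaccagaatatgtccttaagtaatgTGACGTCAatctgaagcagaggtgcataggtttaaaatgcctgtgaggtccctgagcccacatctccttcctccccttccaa
Gzmg: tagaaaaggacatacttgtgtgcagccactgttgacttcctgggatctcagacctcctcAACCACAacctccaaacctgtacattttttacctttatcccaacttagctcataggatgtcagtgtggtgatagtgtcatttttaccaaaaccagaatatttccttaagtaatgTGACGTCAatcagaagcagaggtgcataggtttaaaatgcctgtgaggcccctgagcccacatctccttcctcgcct
Gzmb: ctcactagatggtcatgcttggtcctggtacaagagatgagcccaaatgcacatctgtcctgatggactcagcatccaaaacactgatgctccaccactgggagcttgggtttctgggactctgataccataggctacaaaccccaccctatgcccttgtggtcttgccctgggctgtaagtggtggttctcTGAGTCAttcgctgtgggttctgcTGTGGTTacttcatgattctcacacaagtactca
Cma1: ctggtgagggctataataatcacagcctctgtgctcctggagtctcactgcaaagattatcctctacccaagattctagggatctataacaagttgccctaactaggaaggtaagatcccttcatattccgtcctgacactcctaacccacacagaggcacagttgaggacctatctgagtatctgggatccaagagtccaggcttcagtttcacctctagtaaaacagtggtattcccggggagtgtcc

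The windows of Gzmc, Gzmd, Gzme, Gzmf and Gzmg formed a family. Over their 10 pairs, 79.2% to 95.2% of the window was identical after alignment (median 83.8%), with Gzmd and Gzme the closest pair. The other 35 pairs of members were identical over 54.0% to 62.8% (median 58.0%). The family held 3 unbroken shared runs close to the start, which in Gzmc lie 70 to 55, 45 to 26 and 24 to 11 bases before it: tccttaagtaatgtga, gaagcagaggtgcataggtt and aaaatgcctgtgag. The Runx letters stood in 6 members, these 5 and Gzmb, against 4.4% of 32851 windows of the same length. The CRE letters stood in Gzmc, Gzmf and Gzmg, against 1.55% of windows; this motif was added after the sequences had been seen. The AP-1 letters stood in Gzmb alone of the members (6.75% of windows), and the STAT letters TTCNNNGAA in Ctsg alone (7.02%). No member window held the T-box letters GGTGTGA (3.33% of windows) or the GATA letters AGATAA (9.99%). The windows of the family are alike, so their matches are not independent of each other.

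**Figure D1:**
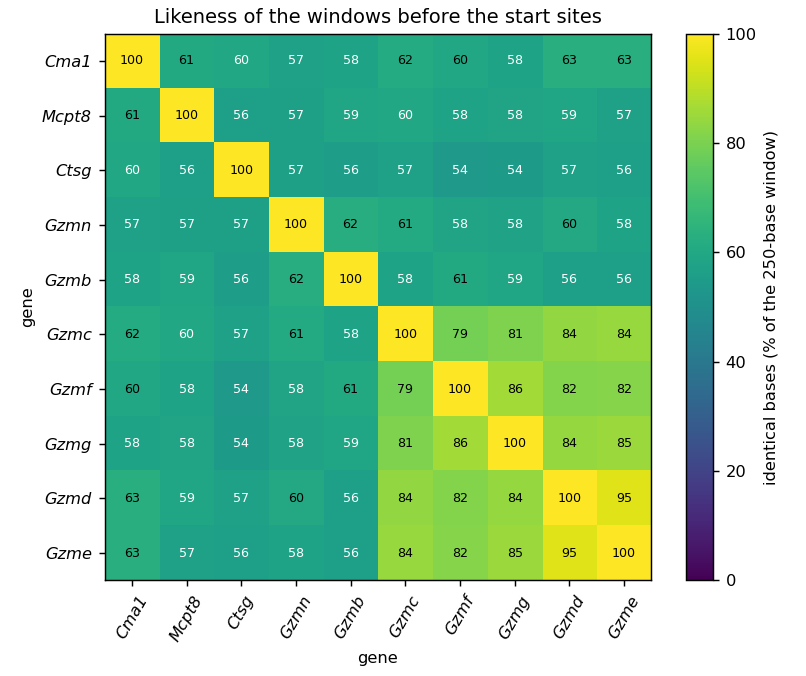
Identical bases after alignment, as a percentage of the 250-base window before each start site, for every pair of the 10 members. The block from Gzmc to Gzmg lies between 79.2% and 95.2%, and the other pairs lie between 54.0% and 62.8%.

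Levels are given as CPM, each count as a share of the library size adjusted by TMM, edgeR's scaling factor. They are compared between populations, never between genes, because the tables give no gene lengths. The RNA library totals ran from 51641248 to 73309063 counts (median 62857384). A difference is called where its p-value from edgeR's quasi-likelihood test, adjusted by Benjamini-Hochberg over all 17124 genes or 51292 peaks tested, is below 0.05. Errors after ± are the SD for levels and the standard error (SE) for log2 fold changes. Markers of NK cells and ILC1s followed the labels: against NK cells, all 6 ILC1 markers were higher in each ILC1 population, and 6, 6 and 5 of 6 NK markers were lower in DP, FMSP and DN. S1pr5 is among these NK markers and is the reporter gene of the NK gate, so its own difference checks the sort. T cell markers differed too: of 10, 2 were called higher than in NK cells in DP, 7 in FMSP and 7 in DN, and none lower. Cd3e, a chain of the T cell receptor complex, averaged 10.8 CPM in NK, 29.5 in DP, 190 in FMSP and 293 in DN. Not all members of the list had that order. Cd3g averaged 7.52 CPM in NK, 749 in DP, 675 in FMSP and 333 in DN. Trbc2 averaged 196, 729, 818 and 608 CPM in the same populations. The summed list ran from 170 to 368 CPM in NK cells, 1002 to 2100 in DP, 1227 to 2823 in FMSP and 1232 to 2553 in DN. The part of T cell RNA in any result was not tested. Of 10 hepatocyte markers only Trf, for transferrin, was called against NK cells, higher in all 3 ILC1 populations. The median log2 fold of the hepatocyte list against NK cells was -1.18 in DP, 3.39 in FMSP and 2.45 in DN, and its sum was highest in FMSP of mouse 6, FMSP of mouse 5 and DN of mouse 2 (742 to 1918 CPM). Calls that changed without those 3 libraries are given beside the gene, and the part of hepatocyte RNA in any result was not tested. In sorted bulk cells, fewer expressing cells and less RNA per cell cannot be told apart.

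Most of the locus was at or near 0 in these RNA libraries. Gzme and Gzmg had 0 counts in all 15 libraries, which allows a level of up to 0.00316 CPM over the 15 libraries summed, for counting error only. Gzmd had 1 count in DP of mouse 3 and 3 counts in FMSP of mouse 6. Gzmf had 24 counts, all in DP of mouse 4, and Gzmn had 24 counts, all in DN of mouse 2. Each of these 2 genes was thus read in 1 library and in no other library of its population. These 5 genes stayed below the filter on low counts and were not tested. Because how reads that match several relatives were assigned is not given in the sources used here, reads of one relative may have been counted for another, and their values are uncertain. When the counts of the relatives from Gzmc to Gzmn were summed into 1 gene, no member changed its call.

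Ctsg, the neutrophil protease, was likewise below the filter. FMSP of mouse 3 had 95 counts of it, NK of mouse 5 had 79, FMSP of mouse 5 had 3, and the other 12 libraries had 0. The first 2 of these libraries were also the only ones with counts of Elane, another protease of neutrophil precursors: 154 and 462 counts. Mpo, myeloperoxidase of the same granules, had 1774 and 553 counts there, and 687 in NK of mouse 1, where Ctsg was at 0. Genes of later neutrophil granules did not single out these libraries: Ngp had 2072 counts in FMSP of mouse 3 and 0 in NK of mouse 5, but 2471, 1999 and 857 in DN of mice 2 and 4 and NK of mouse 1, all without Ctsg. The 11 neutrophil markers summed to 253 and 49.1 CPM in the 2 libraries and to 6.39 to 190 CPM in the other 13. The part of neutrophil-precursor RNA in the Ctsg counts was not tested. Among other protease genes known from the chymase side of the locus, Cma2 had 5 counts and Mcpt2 had 2, each in 1 FMSP library, and Mcpt1, Mcpt4 and Mcpt9 had none in any library.

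Gzmc, the gene that defines the sort, followed it stepwise and was not at 0 in any population. Its level was 2.87, 1.43, 1.01 and 3.92 CPM in NK cells of mice 1, 4, 5 and 6, and 10.5, 10.2 and 13.6 CPM in DN cells of mice 2, 4 and 6. It was 42.0, 26.4, 31.3 and 21.8 CPM in FMSP cells and 496.5, 320, 360 and 320 CPM in DP cells, both of mice 3, 4, 5 and 6. No 2 populations overlapped. The means were 2.31 ± 1.34 (n = 4), 11.4 ± 1.87 (n = 3), 30.4 ± 8.68 (n = 4) and 374 ± 83.6 CPM (n = 4) in NK, DN, FMSP and DP. The libraries of both gates without current Gzmc thus held Gzmc RNA; the purity of the sorts is not given in the sources used here, and the part of stray DP cells was not tested. DP exceeded FMSP by a log2 fold of 3.62 ± 0.39 (adjusted p = 0.00246) and DN by 5.03 ± 0.47 (adjusted p = 0.000435). FMSP lay above DN by 1.41 ± 0.39, which edgeR did not call (adjusted p = 0.504) and DESeq2 did (adjusted p = 0.0487). Without the 3 libraries high in hepatocyte markers the DP and FMSP difference stayed at 3.45 but was no longer called (adjusted p = 0.506).

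NK libraries held less Gzmc than every ILC1 population. In DP the gate on Gzmc set the difference, a log2 fold of 7.34 ± 0.46. In FMSP the fold was 3.72 ± 0.39 (adjusted p = 3.82e-05), and the part of the gate on past Gzmc in it was not tested. In DN it was 2.31 ± 0.39 (adjusted p = 0.00323). The DN cells, which by their gate had no history of Gzmc, were thus above NK cells in 3 of 3 libraries. That last call was lost when only DN and NK libraries entered the fit (adjusted p = 0.147).

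**Figure D2:**
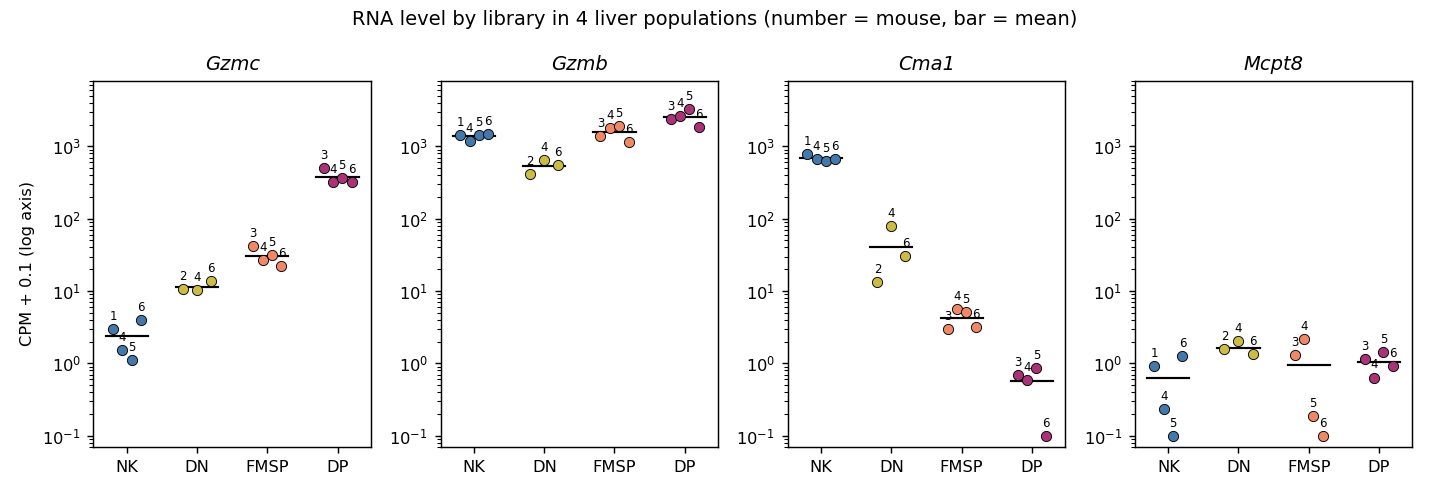
RNA level (CPM + 0.1, log axis) of the 4 members that passed the filter on low counts, by liver population; each point is a library with its mouse number and each bar a mean. Gzmc climbs from NK (1.01 to 3.92 CPM) to DP (320 to 496.5 CPM), Cma1 falls from NK (633 to 777 CPM) to DP (0 to 0.767 CPM), Gzmb is lowest in DN, and Mcpt8 reaches at most 2.06 CPM.

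Gzmb, the caspase-activating granzyme, was high in every population and took another order than Gzmc. Its level was 412, 654 and 558 CPM in DN cells of mice 2, 4 and 6, and 1438, 1176, 1457 and 1463 CPM in NK cells of mice 1, 4, 5 and 6. In FMSP cells of mice 3, 4, 5 and 6 it was 1371, 1804, 1909 and 1155 CPM, and in DP cells of the same mice 2388, 2660, 3243 and 1878 CPM. DN cells lay below all other libraries, NK cells lay within the FMSP range, and DP overlapped FMSP by 1 library. In each of the 4 mice with both, DP exceeded FMSP.

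The means of Gzmb were 541 ± 122 (n = 3), 1384 ± 139 (n = 4), 1560 ± 356 (n = 4) and 2542 ± 569 CPM (n = 4) in DN, NK, FMSP and DP. DN cells held less Gzmb than NK cells, by a log2 fold of -1.35 ± 0.24 (adjusted p = 0.0054), and less than DP cells, which exceeded them by 2.23 ± 0.25 (adjusted p = 0.00133). The DP and DN call was lost when only those 2 populations entered the fit (adjusted p = 0.0981). DP exceeded NK by 0.88 ± 0.22 (adjusted p = 0.033). That call rested on the full set of libraries: it was lost on leaving out any single NK library or DP of mouse 3, 4 or 5 (adjusted p = 0.057 to 0.132) and without a filter on low counts (adjusted p = 0.0589), and it was kept only without DP of mouse 6. With mouse as a block it passed (adjusted p = 0.00671). The neighbours NK and FMSP differed by 0.17 ± 0.22 (adjusted p = 0.843), FMSP and DN by 1.53 ± 0.25 (adjusted p = 0.105), and DP and FMSP by 0.70 ± 0.22 (adjusted p = 1), none of them called. The FMSP and DN difference was called by DESeq2 (adjusted p = 1.73e-08) and without FMSP of mouse 6 (adjusted p = 0.0467).

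The balance of the 2 granzymes within a library, which does not depend on scaling between libraries, separated NK cells and DP cells from the rest. Per 1000 Gzmb counts, NK libraries had 1.65 ± 0.873 Gzmc counts (n = 4) and DN libraries 21.8 ± 5.37 (n = 3). FMSP libraries had 20.1 ± 7.21 (n = 4), and DP libraries 152 ± 45.3 (n = 4). The DN libraries (15.6 to 25.4) lay within the FMSP range (14.6 to 30.6), although both genes had higher mean levels in FMSP. Neither NK nor DP libraries overlapped any other population. Because Gzmc chose the DP, FMSP and DN cells, the place of DP in this balance checks the sort.

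Cma1, the chymase, ran opposite to Gzmc. In NK cells of mice 1, 4, 5 and 6 it reached 777, 668, 633 and 671 CPM, a mean of 687 ± 62.2 (n = 4). In DN cells of mice 2, 4 and 6 it was 13.2, 79.3 and 30.3 CPM, and in FMSP cells of mice 3, 4, 5 and 6 it was 2.91, 5.61, 5.10 and 3.11 CPM. In DP cells of the same mice it was 0.591, 0.490, 0.767 and 0 CPM, from 35, 31, 49 and 0 counts. No 2 populations overlapped, and the order NK, DN, FMSP, DP is the reverse of the order for Gzmc.

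Against NK cells, Cma1 was lower by a log2 fold of -10.53 ± 0.94 in DP (adjusted p = 8.56e-06), -7.36 ± 0.82 in FMSP (adjusted p = 6.39e-05) and -4.07 ± 0.80 in DN (adjusted p = 0.00943). DP was also below DN, by -6.46 ± 0.82 (adjusted p = 0.004), a call lost when only those populations entered the fit (adjusted p = 0.284). FMSP against DN (-3.29 ± 0.71, adjusted p = 0.278) and DP against FMSP (-3.17 ± 0.70, adjusted p = 1) were not called by edgeR, while DESeq2 called both (adjusted p = 0.00116 and 0.000443). The DN value leaned on its 3 libraries: without DN of mouse 4 it was -5.00 against NK, and DP against DN was then -5.54. The DN and NK call was lost without DN of mouse 6 (adjusted p = 0.0542) and without the 3 libraries high in hepatocyte markers (adjusted p = 0.0691), where the folds were -3.91 and -3.65.

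Markers of NK cells were set beside Cma1 in the DN libraries. Cma1 stood at 1.92%, 11.5% and 4.42% of its NK mean in DN of mice 2, 4 and 6. Of the 6 NK markers, 5 had the same order of libraries, among them the Ly49 receptor gene Klra4 (1.86%, 15.8% and 6.88%) and the reporter gene S1pr5 (6.81%, 19.6% and 8.92%). The NK cell factor Eomes did not (21.2%, 26.2% and 7.67%). The summed NK markers were 4364 to 5682 CPM in NK cells, 314 to 786 in DN, 99.2 to 163 in FMSP and 53.6 to 118 in DP. In FMSP and DP, Cma1 was at most 0.816% and 0.112% of the NK mean. The part of NK cell RNA in the Cma1 values of ILC1 populations was not tested. Mast cell genes were measured beside Cma1. In NK libraries the mast cell list summed to 29.1 to 41.5 CPM, inside the range of the other populations (13.2 to 173 CPM), and the mast cell proteases Tpsb2, Tpsab1 and Mcpt4 and the receptor Mrgprb2 were at 0 in all 4. Kit carried the sum (23.5 to 35.1 CPM). Hdc (1.69 to 6.39 CPM), Cpa3 (0.357 to 1.00 CPM), Ms4a2 (0.0375 to 1.01 CPM) and Gata2 (0.0489 to 0.994 CPM) had counts in all 4. Fcer1a had counts in 3 of the NK libraries (at most 1.69 CPM) and Mrgprb1 in 2 (at most 0.0977 CPM).

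Mcpt8, the basophil protease, was near the filter. It was 0.807, 0.130, 0 and 1.15 CPM in NK cells, 1.49, 1.94 and 1.24 in DN, 1.19, 2.06, 0.0897 and 0 in FMSP, and 1.05, 0.538, 1.35 and 0.807 in DP. DN libraries were highest on average, but FMSP of mouse 4 was above them all, and the ranges of NK, FMSP and DP overlapped. No comparison called it; the fold nearest to a call was 1.57 ± 1.69 in DN against NK (adjusted p = 0.738). Basophil markers summed to 3.68 to 30.2 CPM over the libraries, and edgeR called none of the 8 in any comparison, with at most 3 at an unadjusted p below 0.05 and 2 called by DESeq2, both in DP against DN (Cpa3 and Il4).

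Over the whole locus, 4 members could be tested. Against NK cells, 3 of the 4 were called in DP (Gzmc and Gzmb higher, Cma1 lower), where 4.08% of all genes were called (2.51% higher, 1.58% lower). In FMSP 2 of 4 were called (Gzmc higher, Cma1 lower), beside 4.07% of all genes (2.48% higher, 1.59% lower), and in DN 3 of 4 (Gzmc higher, Gzmb and Cma1 lower), beside 2.99% (1.81% higher, 1.18% lower). DP against DN called 3 of 4 (Gzmc and Gzmb higher, Cma1 lower), while 0.0584% of genes, 10 in all, were called (0.0117% higher, 0.0467% lower). DP against FMSP called 1 of 4, Gzmc, which was the only gene edgeR called at all (0.00584%). In that comparison 3 of the 4 had an unadjusted p below 0.05, and DESeq2 called 2. FMSP against DN called 0 of 4 by edgeR, beside 0.00584% of all genes, with 3 of the 4 at an unadjusted p below 0.05 and 3 called by DESeq2. The Gzmc calls of DP were set by its gate, and the FMSP gate also used Gzmc. The members that could be tested are those with reads, so these counts do not speak for the 6 members left out. Comparisons with NK cells share the NK libraries, and those with DN share the DN libraries.

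**Figure D3:**
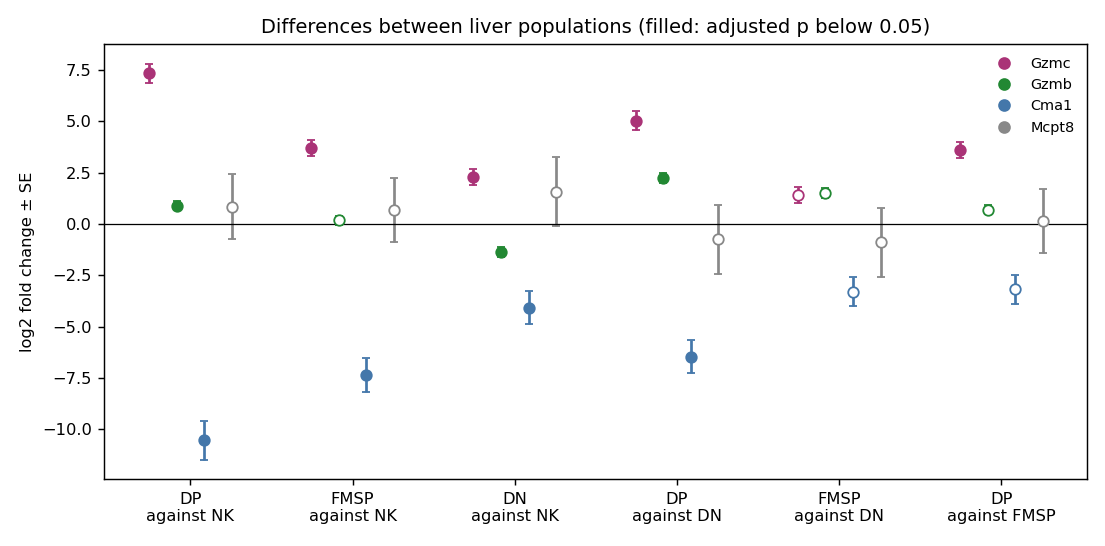
Log2 fold change ± SE of the 4 tested members in the 6 comparisons of liver populations; filled points have an adjusted p below 0.05. Against NK cells Gzmc lies above 0 (2.31 to 7.34) and Cma1 below 0 (-10.53 to -4.07) in all 3 ILC1 populations, while Gzmb lies below 0 in DN only (-1.35).

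A wider list of granule pathway genes, which also holds other granzymes, protease inhibitors and death ligands, showed another picture. Of 22 such genes outside the locus, all tested, 1 was higher and 6 lower in DP than in NK cells, 1 higher and 8 lower in FMSP, and 2 higher and 6 lower in DN. Their median log2 fold was -0.42, -0.63 and -0.64 in DP, FMSP and DN, beside 0.03, 0.11 and 0.17 over all genes. None of the 22 was called by edgeR between any 2 ILC1 populations. At an unadjusted p below 0.05 there were 9 in DP against DN, 3 in FMSP against DN and 0 in DP against FMSP, and DESeq2 called 3, 0 and 0. Tnfsf10, which encodes the death ligand TRAIL, was higher than in NK cells, by 4.79 ± 0.41 in DP (adjusted p = 6.45e-06), 4.51 ± 0.41 in FMSP (adjusted p = 1.1e-05) and 3.79 ± 0.40 in DN (adjusted p = 8.28e-05). Tnfsf10 is also on the list of ILC1 markers. Lyst, a regulator of lysosomal granule size, was called higher in DN (2.00 ± 0.48, adjusted p = 0.035). It was not called by edgeR in DP (1.35 ± 0.45, adjusted p = 0.139) or FMSP (1.63 ± 0.45, adjusted p = 0.0591). DESeq2 called Lyst in all 3 ILC1 populations.

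On the lower side stood the pore former and another granzyme. Prf1, which encodes perforin, was lower than in NK cells by -2.56 ± 0.32 in DP (adjusted p = 0.000157), -2.61 ± 0.32 in FMSP (adjusted p = 0.000142) and -2.65 ± 0.36 in DN (adjusted p = 0.000704), so where Gzmb was higher, in DP, Prf1 was lower. Gzma, a granzyme that cuts after basic residues and lies on another chromosome, was lower in all 3 ILC1 populations, by -2.06 ± 0.47 in DP (adjusted p = 0.0181), -2.60 ± 0.48 in FMSP (adjusted p = 0.00413) and -2.84 ± 0.54 in DN (adjusted p = 0.00767). Gzmm was lower by -4.26 ± 0.94 in DP (adjusted p = 0.0148) and -4.47 ± 0.95 in FMSP (adjusted p = 0.012). Serpinb9, the intracellular inhibitor of granzyme B, was lower in all 3, by -2.20 ± 0.28 in DP, -2.59 ± 0.29 in FMSP and -2.23 ± 0.32 in DN (adjusted p = 0.000213, 6.19e-05 and 0.00108). Serpinb9b was lower by -8.34 ± 1.65 in DP (adjusted p = 0.00692) and -6.60 ± 1.52 in FMSP (adjusted p = 0.0214).

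Genes with patterns most like the 3 well-measured members were sought over the 15 libraries among 9723 genes, by the root-mean-square (RMS) difference of log2 CPM after centring each gene. For Gzmb these were Sh2d1b1 (RMS 0.355), Kcnj8 (0.434) and Entpd1 (0.458), where the median candidate was at 0.943. Sh2d1b1, an adaptor of activating receptors, averaged 32.15 CPM in DN, 63.2 in NK, 66.3 in FMSP and 89.3 in DP, the order of Gzmb. For Cma1 they were Phactr3 (1.345), the NK cell factor Eomes (1.45) and Ly6a2 (1.45), with the median at 4.37. For Gzmc, Csf1 (1.51) and Podnl1 (1.56; median 2.89) were among the nearest but not close: Csf1, a growth factor of macrophages, averaged 2.41, 14.3, 27.8 and 53.7 CPM in NK, DN, FMSP and DP, a far smaller step from FMSP to DP than that of Gzmc.

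Accessibility was measured at the 12 peaks named for members, of which all were tested. A peak named for Gm24118 (chr14:56240258-56241808) overlaps the upstream end of the Gzmc gene span (chr14:56231397-56241647). In ILC1s against NK cells it gave -0.03 ± 0.26 in the liver (adjusted p = 0.953). For salivary gland against spleen it gave -0.17 ± 0.24 (adjusted p = 0.6). A peak named for Mcpt1, also in the locus, gave -0.25 ± 0.34 (adjusted p = 0.658) and -1.75 ± 0.41 (adjusted p = 7.67e-05). Peaks cover the whole 250-base window before the start of Gzmb, Gzmc and Mcpt8 and 223 bases of that of Cma1. No peak covers the windows of Gzmd, Gzme, Gzmf, Gzmg, Gzmn or Ctsg, and the nearest peak lies 5209 (Gzmf) to 44028 (Gzmg) bases away. How reads that match several relatives were treated is not known, and its part in the lack of peaks at Gzmd, Gzme, Gzmf and Gzmg was not tested. Libraries held 5609587 to 9957335 counts in liver and 11101944 to 26944890 in spleen and salivary gland, so depth moves with organ, and its part in differences between organs was not tested. Salivary gland ILC1s and spleen NK cells also come from different organs, so organ and cell type cannot be told apart in that comparison.

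The Gzmc start site peak (chr14:56234259-56235420), which holds the Gzmc sequence printed above, was more open in ILC1s. It was at 5.87 and 4.50 CPM in liver NK cells and 12.9 and 20.1 in liver ILC1s, and at 2.78 and 2.83 in spleen NK cells and 21.6 and 24.8 in salivary gland ILC1s. ILC1 and NK libraries did not overlap. Whether these ILC1s were chosen by Gzmc cannot be told, and the part of the sort in this difference was not tested. The log2 fold was 1.67 ± 0.27 in the liver (adjusted p = 4.95e-08) and 3.05 ± 0.27 for salivary gland ILC1s against spleen NK cells (adjusted p = 4.11e-28). The 2 folds differed by 1.38 ± 0.39 (adjusted p = 0.00305; 0.056 without liver NK replicate 1). Liver NK cells lay above spleen NK cells, with a spleen against liver fold of -0.90 ± 0.32 (adjusted p = 0.0163), a call lost on leaving out liver NK replicate 1, spleen NK replicate 1 or spleen NK replicate 2 (adjusted p = 0.0551 to 0.226).

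The second Gzmc peak, 4.1 kb downstream of the start (chr14:56229957-56231173, intergenic in the authors' annotation), behaved differently. It was at 11.2 and 7.72 CPM in liver NK cells, 8.23 and 5.85 in liver ILC1s, 1.80 and 3.52 in spleen NK cells and 13.3 and 16.4 in salivary gland ILC1s. Liver NK cells and liver ILC1s overlapped (-0.46 ± 0.30, adjusted p = 0.288), while salivary gland ILC1s exceeded spleen NK cells by 2.50 ± 0.30 (adjusted p = 1.76e-15). The difference between these folds was 2.96 ± 0.42 (adjusted p = 2.61e-10). Spleen NK cells were below liver NK cells at this peak (-1.86 ± 0.32, adjusted p = 3.63e-07), and salivary gland ILC1s above liver ILC1s (1.10 ± 0.28, adjusted p = 0.000288).

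**Figure D4:**
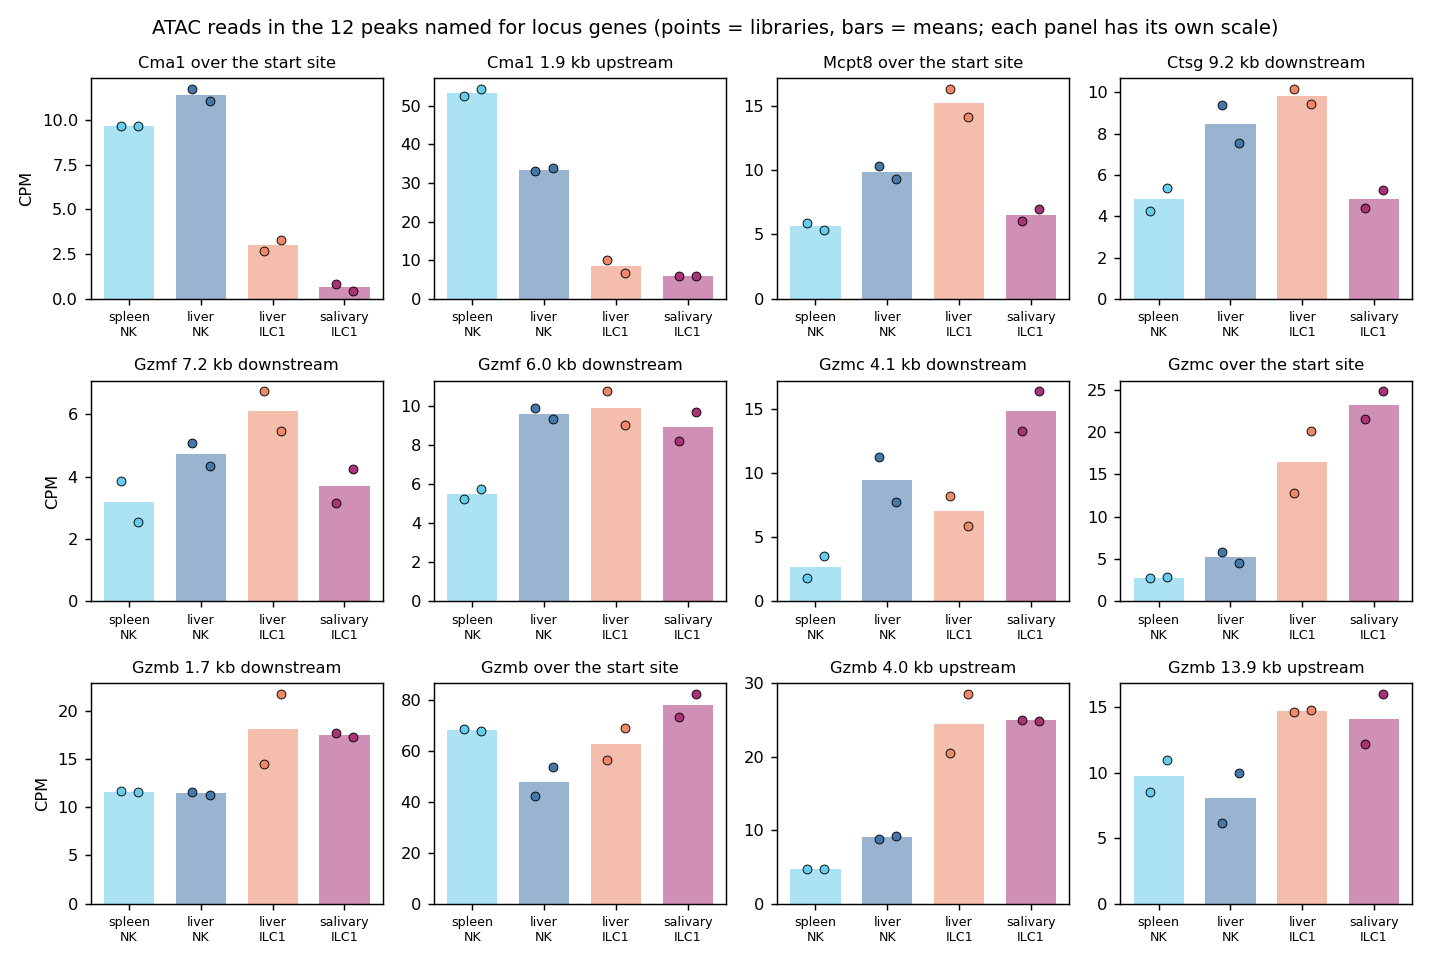
ATAC level (CPM) in the 12 peaks named for members, by group; points are the 2 libraries of a group and bars their mean, and each panel has its own scale from 0. The Gzmc start and the peak 4.0 kb before Gzmb are higher in both ILC1 groups than in both NK groups, both Cma1 peaks are lower, and the Gzmb start is open in all 8 libraries (42.0 to 82.3 CPM).

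At Gzmb, the start site was open everywhere, and the largest ILC1 against NK fold among the Gzmb peaks lay upstream. Differences between peaks were not tested. The start site peak (chr14:56261689-56263005), which holds the Gzmb sequence printed above, was at 42.0 and 53.7 CPM in liver NK cells, 56.2 and 68.8 in liver ILC1s, 67.7 and 68.3 in spleen NK cells and 73.4 and 82.3 in salivary gland ILC1s. It was not called between ILC1s and NK cells in the liver (0.39 ± 0.20, adjusted p = 0.157) or between salivary gland ILC1s and spleen NK cells (0.19 ± 0.19, adjusted p = 0.409). The liver difference was called without liver ILC1 replicate 1 (adjusted p = 0.0438). Spleen NK cells were above liver NK cells there (0.51 ± 0.20, adjusted p = 0.0271). That call was lost on library totals (adjusted p = 0.432) and without liver NK replicate 1, spleen NK replicate 1 or spleen NK replicate 2 (adjusted p = 0.0703 to 0.322). The peak 4.0 kb upstream (chr14:56265911-56266734, intergenic) was at 8.88 and 9.17 CPM in liver NK cells, 20.5 and 28.6 in liver ILC1s, 4.75 and 4.69 in spleen NK cells and 25.04 and 24.95 in salivary gland ILC1s. Both ILC1 groups lay above both NK groups, by 1.46 ± 0.23 in the liver (adjusted p = 2.38e-08) and 2.40 ± 0.23 for salivary gland against spleen (adjusted p = 1.55e-23). Salivary gland and liver ILC1s differed there by 0.02 ± 0.20 (adjusted p = 0.958), while spleen NK cells were below liver NK cells (-0.93 ± 0.26, adjusted p = 0.00203). The folds differed by 0.95 ± 0.33 (adjusted p = 0.0184), a call lost on leaving out liver ILC1 replicate 1 or any 1 of the salivary gland or spleen libraries (adjusted p = 0.0555 to 0.0934).

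The other Gzmb peaks moved less. The peak 1.7 kb downstream of the start (chr14:56260066-56261125) gave 0.68 ± 0.23 in the liver (adjusted p = 0.0249) and 0.59 ± 0.22 for salivary gland against spleen (adjusted p = 0.015). The first call was lost without liver ILC1 replicate 2, liver NK replicate 1 or liver NK replicate 2 (adjusted p = 0.106 to 0.621), by DESeq2 (adjusted p = 0.0835) and on unadjusted library totals (adjusted p = 0.0866), and the second on leaving out any of its 4 libraries (adjusted p = 0.11 to 0.12). The peak 13.9 kb upstream (chr14:56275800-56276707) gave 0.89 ± 0.26 in the liver (adjusted p = 0.00755), lost without liver ILC1 replicate 2 (adjusted p = 0.088) or liver NK replicate 1 (adjusted p = 0.28). For salivary gland against spleen it gave 0.55 ± 0.24 (adjusted p = 0.0438), lost on leaving out any of its 4 libraries (adjusted p = 0.0507 to 0.557) and by DESeq2 (adjusted p = 0.104).

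Cma1 was less open in ILC1s at both of its peaks. The start site peak (chr14:55944257-55944898), which holds 223 bases of the Cma1 sequence printed above, was at 11.75 and 11.1 CPM in liver NK cells, 2.69 and 3.32 in liver ILC1s, 9.66 and 9.67 in spleen NK cells and 0.821 and 0.453 in salivary gland ILC1s. The peak 1.9 kb upstream (chr14:55946082-55947064) was at 33.0 and 33.8 CPM in liver NK cells, 10.0 and 6.73 in liver ILC1s, 52.5 and 54.4 in spleen NK cells and 5.82 and 6.01 in salivary gland ILC1s. No ILC1 library reached an NK library at either peak. In the liver the folds were -1.91 ± 0.35 at the start (adjusted p = 2.38e-06) and -2.03 ± 0.22 upstream (adjusted p = 2.62e-18). For salivary gland ILC1s against spleen NK cells they were -3.98 ± 0.39 (adjusted p = 6.9e-23) and -3.17 ± 0.20 (adjusted p = 2.92e-53). The folds of the 2 organ pairs differed, by -2.07 ± 0.54 at the start (adjusted p = 0.00108) and -1.14 ± 0.29 upstream (adjusted p = 0.00095).

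Organs were also compared within a cell type at the 2 Cma1 peaks, and the difference between the peaks was not tested. Salivary gland ILC1s were below liver ILC1s at the start (-2.31 ± 0.44, adjusted p = 1.14e-06), while the upstream peak was not called (-0.47 ± 0.23, adjusted p = 0.079). The upstream peak was called lower on unadjusted library totals (-0.71, adjusted p = 0.00424), with a minimum of 5 CPM (adjusted p = 0.0392) and without liver ILC1 replicate 2 (adjusted p = 0.0104). The upstream peak was higher in spleen than in liver NK cells (0.68 ± 0.18, adjusted p = 0.00129; 0.129 on unadjusted library totals), while the start was not called (-0.24 ± 0.31, adjusted p = 0.55).

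**Figure D5:**
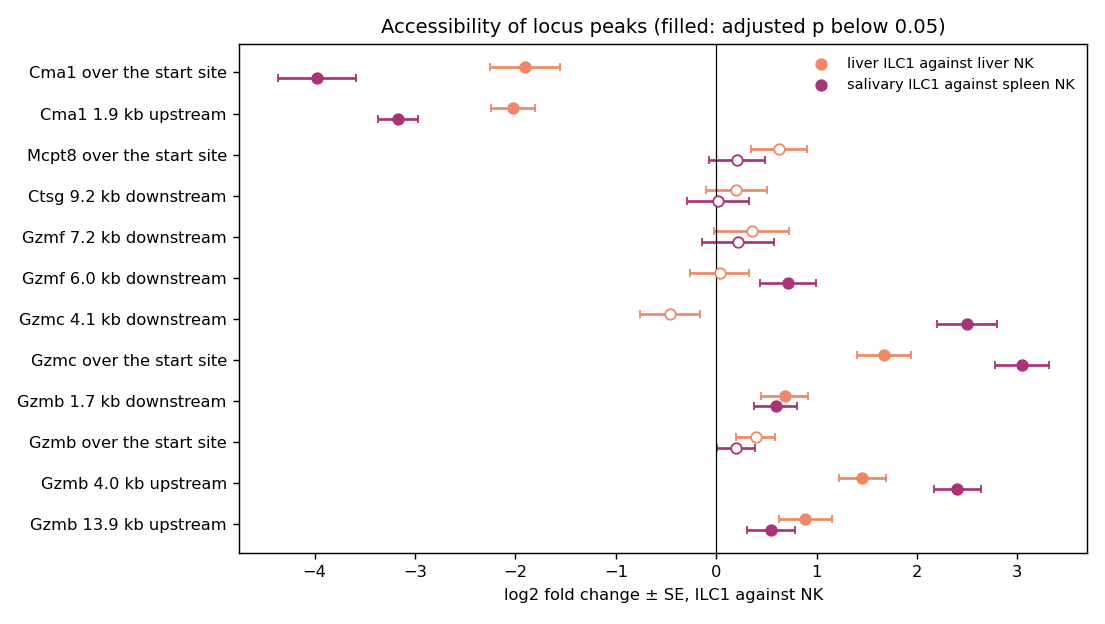
Log2 fold change ± SE of ILC1s against NK cells at the 12 peaks, in the liver and for salivary gland ILC1s against spleen NK cells; filled points have an adjusted p below 0.05. Both Cma1 peaks lie below 0 (-3.98 to -1.91), the Gzmc start and the peak 4.0 kb before Gzmb above 0 (1.46 to 3.05), and the peak downstream of Gzmc lies above 0 for salivary gland against spleen (2.50) and is not called in the liver (-0.46).

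Peaks named for members with little or no RNA had reads in all 8 libraries, as had nearly every peak. Each library had reads in 51389 to 51406 of the 51412 peaks. The Mcpt8 start (chr14:56084402-56085643) was at 9.33 and 10.3 CPM in liver NK cells, 14.1 and 16.3 in liver ILC1s, 5.89 and 5.37 in spleen NK cells and 6.02 and 6.96 in salivary gland ILC1s. It was not called between ILC1s and NK cells in the liver (0.62 ± 0.28, adjusted p = 0.0979), but was lower in salivary gland than in liver ILC1s (-1.22 ± 0.27, adjusted p = 2.59e-05). The Ctsg peak, 9.2 kb downstream of its start (chr14:56092752-56093903), ranged from 4.26 to 10.2 CPM and was likewise lower in salivary gland than in liver ILC1s (-1.01 ± 0.30, adjusted p = 0.00236). In spleen against liver NK cells the Mcpt8 start (-0.80 ± 0.29, adjusted p = 0.0186) and the Ctsg peak (-0.83 ± 0.32, adjusted p = 0.027) were lower too. Both calls were lost without liver NK replicate 1 (adjusted p = 0.137 and 0.243) or spleen NK replicate 1 (adjusted p = 0.0746 and 0.227). The Mcpt8 call was also lost without spleen NK replicate 2 (adjusted p = 0.0989). The 2 Gzmf peaks lie 7.2 kb (chr14:56203857-56204537, intergenic) and 6.0 kb (chr14:56204702-56206199, exon in the authors' annotation) downstream of its start. The first was not called in any comparison on TMM scaling, though on unadjusted library totals it was lower in salivary gland than in liver ILC1s (adjusted p = 0.0294) and in spleen than in liver NK cells (adjusted p = 0.0486). The second was lower in spleen than in liver NK cells (-0.81 ± 0.30, adjusted p = 0.0196) and higher in salivary gland ILC1s than in spleen NK cells (0.71 ± 0.28, adjusted p = 0.025). The former call was lost without liver NK replicate 1, spleen NK replicate 1 or spleen NK replicate 2 (adjusted p = 0.0536 to 0.142), and the latter on leaving out any of its 4 libraries (adjusted p = 0.0519 to 0.264).

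Counted over the 12 peaks, liver ILC1s against liver NK cells called 6, with 4 higher and 2 lower, beside 18.7% of all peaks (9.83% higher, 8.85% lower). Salivary gland ILC1s against spleen NK cells called 8, with 6 higher and 2 lower, beside 48.2% (22.0% higher, 26.2% lower). Salivary gland against liver ILC1s called 4, with 1 higher and 3 lower, beside 48.7% (22.8% higher, 25.9% lower), and spleen against liver NK cells called 8, with 2 higher and 6 lower, beside 40.6% (20.9% higher, 19.8% lower). The difference between the 2 ILC1 against NK folds was called at 5 peaks, 3 above 0 and 2 below, beside 30.0% of all peaks (13.5% above, 16.6% below). The median log2 fold of the 12 peaks was 0.37, 0.38, -0.10 and -0.68 in these 4 pairs of groups, in the order given, beside 0.00, -0.09, -0.04 and -0.11 over all peaks. On leaving out 1 library, the 8 peaks of salivary gland against spleen became 5 in each case, and the 8 of spleen against liver NK cells became 3 without liver NK replicate 1 or spleen NK replicate 1 and 4 without spleen NK replicate 2. The 4 of salivary gland against liver ILC1s became 7 without liver ILC1 replicate 2, and the 6 within the liver became 4 to 7. Peaks of 1 gene lie close together and share their libraries, so they are not separate replicates, and the comparisons share groups. Side by side, liver ILC1s against liver NK cells were higher in accessibility at the Gzmc start and lower at both Cma1 peaks, as the RNA of DP, FMSP and DN cells was for these genes. The other Gzmc peak, 4.1 kb downstream of the start, did not follow the Gzmc RNA in the liver (-0.46 ± 0.30, adjusted p = 0.288). Whether the ATAC ILC1s were chosen by Gzmc cannot be told. The Gzmc RNA difference of DP was set by its gate, and the FMSP gate also used Gzmc. At the Gzmb start the liver ILC1 and NK groups were not called. The Gzmb peaks 4.0 kb upstream, 13.9 kb upstream and 1.7 kb downstream were called higher in liver ILC1s (1.46 ± 0.23, 0.89 ± 0.26 and 0.68 ± 0.23). The last 2 of these calls were lost on leaving out single libraries, as given above. Gzmb RNA was above NK in DP, below NK in DN and not called in FMSP. The RNA and ATAC cells were sorted separately, and no test joins the assays.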

How the data were processed

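RNA was measured in 15 libraries and accessibility in 8. The authors deposited RNA values in the form of integer expected counts, and per the submitters' processing notes the tools were Salmon 1.6 and DESeq2 and the build mm10. The deposited ATAC values are counts per peak of 1 shared peak set, and the same notes name Bowtie2, SAMtools, MACS2 and mm10. How multi-mapping reads were handled, strand and pooling for peak calls are not given in the sources used here. In 26 RNA entries a date replaced the symbol, with 0.265% of counts; they stayed in the fits unnamed.

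Both tables were fitted whole with edgeR 4.0.16 in R 4.3.3 (limma 3.58.1): filterByExpr with a minimum count of 10, TMM factors, 1 mean per group, robust quasi-likelihood dispersion and Benjamini-Hochberg adjustment. Residual degrees of freedom were 11 (RNA) and 4 (ATAC). SE is the absolute log2 fold divided by the square root of F. The script was tested on simulated counts. DESeq2 1.42.0 was an alternative, as were other scalings and filters, a replicate block, left-out libraries, mice 4 to 6 alone, and only the populations compared. Promoter windows came from RefSeq's GRCm38.p6 table and were aligned with Biopython 1.88 in Python 3.11.15.

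RNA replicate numbers name mice, so they pair populations. Deviations from the population means correlated across genes with a median r of 0.113 over 16 same-mouse pairs and -0.0266 over 68 others. ATAC numbers were not taken to pair (median r 0.00644 over 12 pairs). Labels do not say whether ATAC replicates of a group came from separate mice, so p-values there measure spread between libraries only. The quasi-likelihood fit also borrows spread across all peaks, and the small ATAC p-values rest mostly on that shared spread. They say little about the spread of a single peak between the 2 libraries of a group.

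All members and their peaks are reported. Pathway genes are named by the largest folds among those called at 10 CPM or more in a group, up to 3 in each direction. The genes most like a member are the 3 with the smallest RMS difference, of which 1 is not reported here. Members, lists and tests were chosen with earlier results of these data known. Limits from a count of 0 rest on 3 counts and cover counting error only.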

Additional observations from a re-analysis of the deposited data

Results flagged for a closer look

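Among the 17 sets of 1 member in 1 group of 4 RNA libraries, of which chance alone flags about 5%, 6 held a library far from the other 3. Gzmb in NK cells of mouse 4 was at 1176 CPM, below the other NK libraries (1438 to 1463 CPM). Gzmd was at 0.0169 CPM in DP of mouse 3 and 0.0529 CPM in FMSP of mouse 6, from 1 and 3 counts. Gzmf was at 0.379 CPM in DP of mouse 4, from 24 counts, with 0 in the other DP libraries. Ctsg was at 1.62 CPM in FMSP of mouse 3 and 1.28 CPM in NK of mouse 5. In sets where most libraries are at 0, any library with reads stands apart.

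The fold of ILC1s against NK cells differed between the pairs of organs, by edgeR's interaction test, at 5 peaks. The differences in log2 fold (salivary gland against spleen, minus liver) were -2.07 at the Cma1 start, -1.14 at 1.9 kb before Cma1, 2.96 at 4.1 kb downstream of the Gzmc start, 1.38 at the Gzmc start and 0.95 at 4.0 kb before Gzmb. In the liver pair the Gzmc downstream peak had its highest library among NK cells, and in the other pair among ILC1s.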

How the results depend on the processing

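Of the recomputed counts of called members 145 stayed within 1.5 times the reported one and 13 did not, and of the single-member values 940 kept direction and call, 58 lost the call, 14 gained it and 32 changed sign. With mouse as a replicate block, no RNA member changed its call (Gzmb in DP against NK adjusted p = 0.00671), nor did any in mice 4 to 6 alone (Gzmb 0.0212); the sign of Mcpt8 in DP against DN turned to 0.10 with the block. The ATAC numbers share only a number, and their block changed the counts of called peaks by less than 1.5 times. For FMSP against DN, DESeq2 called 3 members and leaving out 1 library 0 to 1 (1 without FMSP of mouse 6). For DP against FMSP, DESeq2 called 2, while leaving out the 3 hepatocyte-high libraries gave 0. For DP against DN, 1 was called with only those populations in the fit. Leaving out 1 ATAC library gave 5 peaks in salivary gland ILC1s against spleen NK cells, 4 to 7 in salivary gland against liver ILC1s (7 without liver ILC1 replicate 2), and 3 to 8 in spleen against liver NK cells (3 without liver NK replicate 1 or spleen NK replicate 1, 4 without spleen NK replicate 2). Of the 22 granule genes, DESeq2 called 13 in DP against NK cells where edgeR called 7. The causes were not tested, beyond the fewer libraries in such fits. Against TMM, library totals moved the median log2 fold of all peaks by -0.38 in spleen against liver NK cells and by -0.25 in salivary gland against liver ILC1s, and that of all genes by 0.20 in DN against NK.

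No value that changed sign was called in either fit. For Mcpt8 the sign turned without the 3 hepatocyte-high libraries in FMSP against DN (0.033) and DP against FMSP (-0.80), and leaving out 1 library gave -0.29 to 1.42 in FMSP against NK and -0.25 to 1.13 in DP against FMSP. At the Gzmf peak 6.0 kb downstream in liver ILC1s against NK cells, library totals gave -0.065, a minimum of 5 CPM -0.017 and 1 library left out -0.087 to 0.11. At the Gzmb peak 4.0 kb upstream in salivary gland against liver ILC1s these gave -0.22, -0.045 and -0.19 to 0.25. In spleen against liver NK cells the Gzmb peak 1.7 kb downstream gave -0.36 and -0.014, and the peak 13.9 kb upstream -0.083 on totals and -0.041 to 0.66 with 1 library left out. The Ctsg peak in salivary gland ILC1s against spleen NK cells gave -0.060 at 5 CPM and -0.22 to 0.12, and the Gzmf peak 7.2 kb downstream -0.12 to 0.48. In salivary gland against liver ILC1s, leaving out 1 library gave -0.31 to 0.24 at the Gzmb peak 1.7 kb downstream and -0.33 to 0.081 at 13.9 kb upstream. In the difference between organ pairs, it gave -0.43 to 0.17 at the Gzmf peak 7.2 kb downstream and -0.33 to 0.23 at the Gzmb peak 1.7 kb downstream, where totals gave 0.053. Low counts limit Mcpt8, Ctsg and the Gzmc relatives, and 2 libraries a group limit all ATAC values.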
